A study of Mus musculus with 25 samples.

Results

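The transcription factors Irf8, Mef2a, Mef2c, Sall1, Runx1, Cebpa, Cebpb, Maf and Bhlhe41 were followed in FACS-sorted microglia (CD11b+; CD45med) of 23 mice at 3 months of age. These 9 genes were chosen by name as regulators of the microglial lineage, with earlier results of these data known. They were found among the 43411 genes of the deposited table by their Ensembl identifiers. All 9 passed the filter on low counts that left 12908 genes for testing. The mice carried floxed Bin1 alleles (B6.129S6-Bin1tm2Gcp/J) and, in both cKO groups, a Cre transgene driven by Thy1 (FVB/N-Tg(Thy1-cre)1Vln/J), which is active in forebrain neurons and not meant to act in microglia. The 6 WT littermates were Bin1flox/wt without Cre, the 7 Het-cKO mice were Bin1flox/wt with Cre, and the 10 Homo-cKO mice were Bin1flox/flox with Cre, so that every group carried at least 1 floxed allele and no mouse had Cre without a floxed allele. The question was whether loss of Bin1 in neurons altered the levels of these factors in the surrounding microglia.

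Microglia arise from early yolk sac progenitors, and their identity is held by a small set of DNA-binding proteins that act together at enhancers. PU.1 (Spi1) and IRF8 bind composite sites and are required for microglia to form, RUNX1 and the C/EBP proteins act in myeloid development, and SALL1, MEF2 proteins and MAF proteins mark the mature, tissue-specific state. BHLHE41 is a repressor that binds E-boxes, also in clock genes. Cytokine and growth factor signals from the brain, among them TGF-beta, CSF1 and IL-34, maintain this state.

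Total counts per mouse ranged from 10812969 to 16734846, and the lowest count of any of the 9 factors in any mouse was 917 (Runx1). Summed microglial markers (9 genes) reached 57783 to 93827 CPM (the count scaled to a common library total after TMM normalization) in every library, and summed lymphocyte markers (5 genes) at most 0.598 CPM. Summed endothelial markers (3 genes) were at 26.8 to 69.8 CPM and summed border macrophage markers (7 genes) at 5.94 to 54.4 CPM, and 1 gene of each of these lists and of the lymphocyte list was listed at 0 in all 23 mice (Cldn5, Mrc1 and Nkg7). Summed neuronal markers (7 genes) were lower in Homo-cKO mice, at 1.68 to 5.43 CPM, than in WT mice, at 6.23 to 31.3 CPM, with 3 of 4 tested markers called lower. Also called lower in Homo-cKO than in WT mice were 2 of 4 tested oligodendrocyte and 1 of 3 tested astrocyte markers. So was the 1 tested endothelial marker (Pecam1, log2 fold change -0.49). Of all genes tested, 7.09% were called lower in this comparison. Summed astrocyte markers (5 genes) had a higher median in Homo-cKO mice, at 279.4 CPM, than in WT mice, at 256.2 CPM. Summed oligodendrocyte markers (5 genes) had a lower one, at 74.7 CPM in Homo-cKO and 88.0 CPM in WT mice. The ranges of both sums overlapped between these groups. The part of these differences in the results on the factors was not tested. In 4 Homo-cKO libraries (F1, F2, M1 and M2, mice being named by sex and by their order within it) the immediate-early gene Fos stood at 824 to 1459 CPM, whereas the other 6 Homo-cKO libraries were at 0.363 to 6.999 CPM, WT mice at 0.0677 to 1.73 CPM and Het-cKO mice at 0.25 to 1.26 CPM. All 13 WT and Het-cKO mice had animal numbers in a low range, while the Homo-cKO mice fell in a middle range (6 mice) or a high range (4 mice), so that number range and homozygous genotype cannot be told apart. All 4 high-Fos libraries came from mice of the middle range. Fits with only the high range therefore also leave them out, and are not independent of the fits without the high-Fos libraries. Bin1 itself was at 599.7 to 814 CPM in WT, 629 to 747 CPM in Het-cKO and 327.6 to 673 CPM in Homo-cKO microglia. Mean Bin1 was lower in Homo-cKO microglia, at 481 CPM, than in WT, at 699 CPM, or Het-cKO, at 692 CPM. As the Cre is meant to act in neurons, these values are no check of the neuronal deletion. The source of the lower Bin1 level in Homo-cKO microglia was not tested, nor was its part in the results on the factors. In bulk RNA of sorted cells, fewer cells of a type and less RNA per cell cannot be told apart.

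Per kilobase of merged exon sequence, Sall1 had the highest level of the 9 factors and Runx1 the lowest. Over all 23 mice, Sall1 was at 150.4 ± 10.7 CPM per kb (SD, n = 23) and Irf8 at 129 ± 8.55. The C/EBP genes followed, Cebpb at 104 ± 18.8 and Cebpa at 59.7 ± 4.85 CPM per kb. Maf at 40.1 ± 5.64, Mef2c at 37.0 ± 2.70 and Mef2a at 35.6 ± 3.45 CPM per kb were close to each other. Bhlhe41 was at 15.5 ± 2.54 and Runx1 at 7.27 ± 1.10 CPM per kb. The ranges of neighbours in this order overlapped between Sall1, Irf8 and Cebpb, between Cebpa and Maf, and between Maf, Mef2c and Mef2a. They did not overlap between Cebpb and Cebpa, between Mef2a and Bhlhe41, or between Bhlhe41 and Runx1. Merged exons include every annotated isoform, and a gene with long, rarely used exons is therefore placed too low. All 9 were well expressed, with Irf8 above 99.2% and Runx1 above 83.7% of the genes tested by mean CPM.

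**Figure D1:**
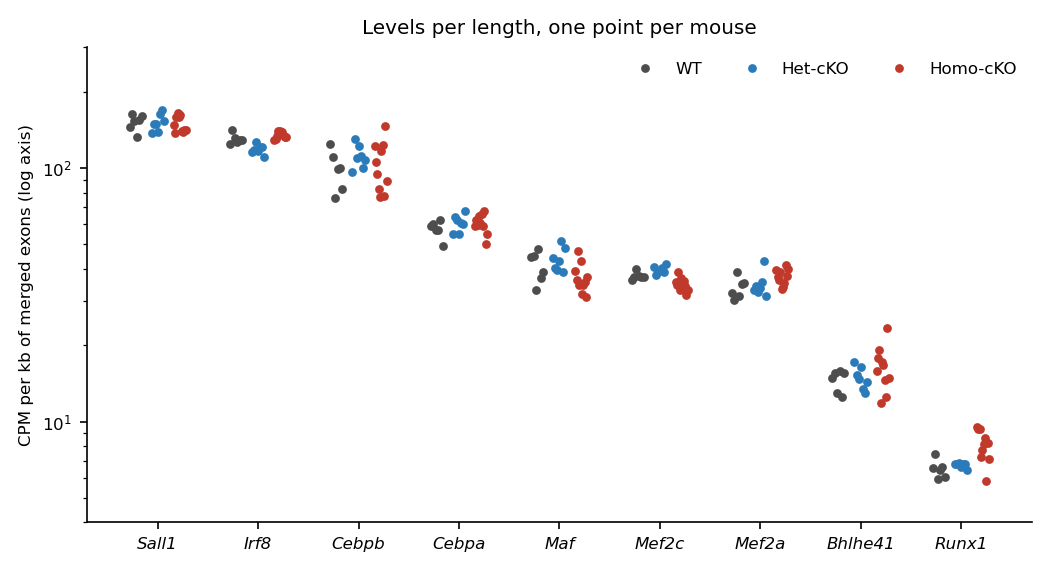
Level of each factor per kilobase of merged exons (CPM per kb, log axis), with 1 point per mouse and color for genotype, ordered from Sall1 to Runx1. Sall1 at 132 to 169 and Runx1 at 5.81 to 9.54 CPM per kb mark the ends of the order, and the genotypes of each factor lie close together.

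The promoter letters of Irf8, Runx1 and Mef2c are shown because these factors differed between genotypes, as described below. Maf also differed between genotypes, but no RefSeq start site was at hand for it. For the other 8 of the 9 factors, 14 RefSeq start sites were at hand. The 250 bases before each were searched on both strands for an ISRE core (GAAA repeated after 2 bases of any kind), PU.1 (GAGGAAGT), RUNX (TGTGGT), C/EBP (TTGCNNAA), CRE (TGACGTCA), the E-box (CACGTG), a MAF site (TGCTGAC) and a TATA box (TATAAA). Below are the most upstream RefSeq start of Irf8 and of Mef2c and the downstream start of Runx1, 5′ to 3′ on GRCm38.p6, with matches in capitals.
Irf8, chr8:120736108-120736357, plus strand: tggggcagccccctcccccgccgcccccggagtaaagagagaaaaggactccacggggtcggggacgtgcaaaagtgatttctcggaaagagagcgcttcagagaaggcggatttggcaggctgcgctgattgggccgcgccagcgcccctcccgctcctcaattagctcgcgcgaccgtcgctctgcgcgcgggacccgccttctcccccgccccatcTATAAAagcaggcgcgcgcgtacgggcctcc
Mef2c, chr13:83503784-83504033, plus strand: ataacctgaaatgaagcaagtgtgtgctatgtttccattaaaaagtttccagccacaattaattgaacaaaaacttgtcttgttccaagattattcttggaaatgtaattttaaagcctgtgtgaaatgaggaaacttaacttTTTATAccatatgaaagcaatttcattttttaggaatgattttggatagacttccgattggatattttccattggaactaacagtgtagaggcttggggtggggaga
Runx1, chr16:92697330-92697579, minus strand: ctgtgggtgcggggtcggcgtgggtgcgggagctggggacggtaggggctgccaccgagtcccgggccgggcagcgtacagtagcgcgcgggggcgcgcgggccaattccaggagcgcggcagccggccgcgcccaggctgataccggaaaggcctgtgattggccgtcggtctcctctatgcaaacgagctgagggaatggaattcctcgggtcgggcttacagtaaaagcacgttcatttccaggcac

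The Irf8 window held a TATA match 31 bases before the start. In the Mef2c window a TATA match lay on the other strand 107 bases before the start. Further TATA matches stood 22 bases before another Mef2c start, again on the other strand, and 30 bases before the Cebpa start. In all, 4 of the 14 windows, from 3 factors, held a TATA match. None of the 8 motifs was matched in the Runx1 window shown. At the upstream Runx1 start an E-box lay 71 bases before, and Bhlhe41 itself had an E-box 153 bases before its start. Among all 32851 promoters, 12.4% held a TATA match and 6.02% an E-box. No match for PU.1, RUNX, C/EBP, CRE, the ISRE core or the MAF site was in any of the 14 windows, against 2.44%, 14.05%, 9.56%, 1.55%, 2.98% and 3.81% of all promoters. No 2 matches in a window overlapped. A match is a run of letters and not evidence of binding.

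Irf8 encodes the interferon regulatory factor that pairs with PU.1. The gene lies on chr8:120736358-120756694 (GRCm38, plus strand). Its level was 880.4 to 994 CPM in WT mice (median 908), 779.7 to 893 CPM in Het-cKO mice (median 827) and 908 to 988 CPM in Homo-cKO mice (median 941). Het-cKO mice were the lowest group, and all 10 Homo-cKO mice stood above all 7 Het-cKO mice. Between Homo-cKO and Het-cKO mice, Irf8 was 1.14-fold higher in Homo-cKO (log2 fold change 0.19, 95% interval 0.10 to 0.28, adjusted p = 0.0026 by edgeR's quasi-likelihood test). Separated groups of this kind were seen for 2.32% of all genes in that comparison. Against WT, 6 of 7 Het-cKO mice were below all 6 WT mice, with a log2 fold change of -0.14 (interval -0.24 to -0.04) and an unadjusted p of 0.0077 in edgeR, but the adjusted p was 0.51. Homo-cKO and WT mice overlapped, at a log2 fold change of 0.05 (interval -0.04 to 0.14, adjusted p = 0.51 in edgeR). Irf8 varied least of the 9 factors within Homo-cKO mice, with a coefficient of variation of 3.09%.

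Runx1 encodes a Runt-domain factor needed for blood formation and active in embryonic microglia. The gene spans chr16:92601466-92826149 on the minus strand. WT mice had 71.1 to 89.2 CPM (median 78.3), Het-cKO mice 77.5 to 82.7 CPM (median 81.7) and Homo-cKO mice 69.9 to 115 CPM (median 98.7). The Homo-cKO mice were the most spread group, 7 of 10 lay above every WT mouse, and 1 (M3) lay below every WT mouse. Relative to WT, Runx1 rose 1.23-fold in Homo-cKO mice (log2 fold change 0.30 ± 0.08 SE, interval 0.14 to 0.46, adjusted p = 0.013 in edgeR), and 9 of 10 exceeded all Het-cKO mice at a log2 fold change of 0.27 (interval 0.12 to 0.43, adjusted p = 0.0090). The 4 libraries with high Fos had 98.5 to 115 CPM of Runx1, the other 6 Homo-cKO libraries 69.9 to 112 CPM. With those 4 left out, the log2 fold change against WT was 0.20 with an adjusted p of 0.14 in edgeR, and the call was lost. With only the 4 Homo-cKO mice of the high number range, which had 85.3 to 98.9 CPM, it was 0.21 with an adjusted p of 0.089.

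The C/EBP genes are single-exon regulators of myeloid genes, Cebpa (chr7:35119293-35121928) more of development and Cebpb (chr2:167688915-167690418) more of induced responses. Cebpa was at 129.5 to 164 CPM in WT, 145 to 178 CPM in Het-cKO and 132 to 179 CPM in Homo-cKO mice, and all groups overlapped. Its log2 fold change between Homo-cKO and WT was 0.07 (interval -0.07 to 0.21, adjusted p = 0.54 in edgeR). Cebpb had 115 to 187 CPM in WT, 145 to 196 CPM in Het-cKO and 115 to 219.4 CPM in Homo-cKO mice. With a coefficient of variation of 22.4% it was the most variable factor in Homo-cKO mice, and its log2 fold change of 0.06 against WT had a wide interval (-0.20 to 0.33, adjusted p = 0.80 in edgeR). The high-Fos libraries held 158 to 185 CPM of Cebpb, and the highest value, 219.4 CPM, came from Homo-cKO M4, where Fos was at 1.97 CPM. Exonic bases shared with Tmem189 on the opposite strand (312) make up 20.7% of the Cebpb exons, and as no strand setting is stated for the counts, reads there cannot be told apart from Tmem189 (91.1 to 133 CPM), which was called in none of the 3 genotype comparisons.

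Mef2c and Mef2a encode MADS-box factors that bind near microglial enhancers, and Mef2c is known to restrain inflammatory responses of microglia. Mef2c (chr13:83504034-83667080) was at 567 to 628 CPM in WT mice (median 585), 595 to 656 CPM in Het-cKO mice (median 618) and 495 to 608 CPM in Homo-cKO mice (median 545). Homo-cKO mice were the lowest group, with 9 of 10 below all Het-cKO mice and 8 of 10 below all WT mice. Mef2c was 1.14-fold lower in Homo-cKO than in Het-cKO mice (log2 fold change -0.19, interval -0.29 to -0.10, adjusted p = 0.0045 in edgeR). Against WT the log2 fold change was -0.11 (interval -0.21 to -0.01), with an unadjusted p of 0.032 and an adjusted p of 0.14 in edgeR. Mef2a (chr7:67231163-67372858) had 442 to 573 CPM in WT, 459 to 628 CPM in Het-cKO and 491 to 608 CPM in Homo-cKO mice, and 3 of 10 Homo-cKO mice lay above all WT mice. Its log2 fold change of 0.16 against WT (interval 0.02 to 0.30, unadjusted p = 0.024) did not pass adjustment in edgeR (adjusted p = 0.12).

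Sall1 encodes a zinc finger repressor that among brain cells of the myeloid lineage marks microglia. The gene lies on chr8:89027235-89044162. Levels were 695 to 857 CPM in WT mice (median 812), 720.0 to 888 CPM in Het-cKO mice (median 787) and 724 to 871 CPM in Homo-cKO mice (median 760.0). All 3 groups overlapped. Between Homo-cKO and WT mice the log2 fold change was -0.02 (interval -0.15 to 0.11, adjusted p = 0.89 in edgeR).

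Maf, on chr8:115682942-115707794, encodes c-MAF, a factor of mature tissue macrophages. WT mice had 272 to 395 CPM (median 344.2), Het-cKO mice 321 to 423 CPM (median 355) and Homo-cKO mice 256 to 388 CPM (median 295). Of 10 Homo-cKO mice, 7 lay below all Het-cKO mice and 2 below all WT mice. Maf was 1.18-fold lower in Homo-cKO than in Het-cKO mice (log2 fold change -0.24, interval -0.41 to -0.06, adjusted p = 0.042 in edgeR), and the call was lost when any 1 of 11 mice was left out (highest adjusted p 0.13, without Het-cKO M1). Against WT, the log2 fold change was -0.17 (interval -0.35 to 0.01, adjusted p = 0.23 in edgeR). Across mice, Maf went with the nuclear RNA Malat1 (r = 0.89 after genotype and sex were removed, n = 23). Malat1 ranged from 1548 to 6054 CPM over the 23 mice, at medians of 2973 CPM in WT, 3314 CPM in Het-cKO and 2904 CPM in Homo-cKO mice, and the part of this variation in the Maf result was not tested.

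Bhlhe41, on chr6:145858243-145865558, encodes a basic helix-loop-helix repressor of clock and macrophage lineage genes. Its level was 84.04 to 107 CPM in WT, 87.3 to 116 CPM in Het-cKO and 79.5 to 157 CPM in Homo-cKO mice. The Homo-cKO group held both the lowest and the highest mouse (F4 and M4), with 5 of 10 above and 2 of 10 below all WT mice. The log2 fold change against WT was 0.16 (interval -0.07 to 0.38, adjusted p = 0.38 in edgeR). Exonic bases shared with Gm43909 on the opposite strand make up 19.0% of the Bhlhe41 exons.

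**Figure D2:**
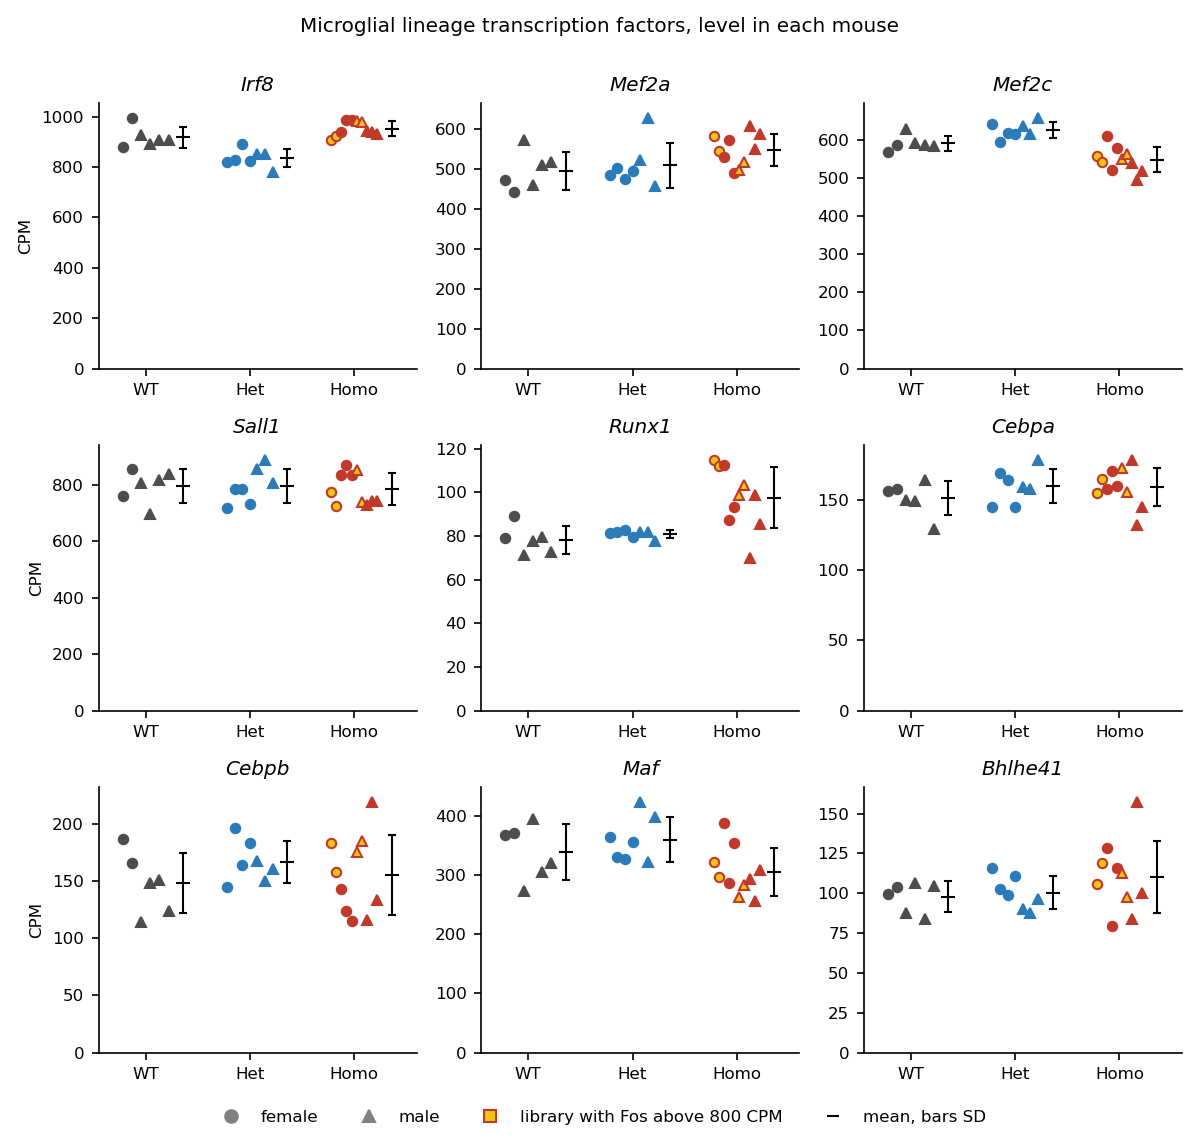
Level of each factor (CPM, axes from 0) in every mouse of the WT, Het-cKO and Homo-cKO groups, with circles for females, triangles for males, yellow fill for the 4 libraries with Fos above 800 CPM, and bars for the mean and SD. Irf8 is lowest in Het-cKO mice, Runx1 is raised and spread in Homo-cKO mice at 69.9 to 115 CPM, and Sall1 overlaps between all groups.

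Between Homo-cKO and WT mice, 1 of 9 factors was called at an adjusted p below 0.05 (Runx1, higher), where 12.7% of all genes tested were called (5.66% higher and 7.09% lower). At an unadjusted p below 0.05 there were 3 (Runx1, Mef2a and Mef2c), against 27.1% of all genes. No factor reached a fold change above 1.5 with an adjusted p below 0.05, as 3.4% of all genes did, and none had groups that did not overlap, as 1.81% of all genes had. The 2097 genes at or above the level of Runx1 were called more often, at 27.6%. The median size of the log2 fold change was 0.11 for the 9 factors, 0.15 for those 2097 genes and 0.17 for all genes tested.

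Between Het-cKO and WT mice, 0 of 9 factors were called by edgeR, DESeq2 or limma-voom, and in edgeR 0.0% of all genes were. At an unadjusted p below 0.05 there was 1 factor (Irf8), against 7.73% of all genes. Between Homo-cKO and Het-cKO mice, 4 of 9 were called, Irf8 and Runx1 higher and Mef2c and Maf lower in Homo-cKO mice, where 22.7% of all genes were called (11.1% higher and 11.7% lower). None of the 4 reached a fold change above 1.5, as 6.62% of all genes did. Among the 2097 genes at or above the level of Runx1, 35.8% were called at an adjusted p below 0.05, at any fold change. The 3 comparisons share libraries and are not independent of each other. For Irf8, Mef2c and Maf the Het-cKO mice lay on the far side of WT, with log2 fold changes against WT of -0.14 for Irf8, 0.08 for Mef2c (interval -0.03 to 0.19) and 0.07 for Maf (interval -0.13 to 0.27), none of them called. With the 4 high-Fos libraries left out, Irf8 and Mef2c were still called between Homo-cKO and Het-cKO mice, and Runx1 and Maf were not. The same 2 were called with only the Homo-cKO mice of the high number range, a fit that also leaves out the high-Fos libraries.

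**Figure D3:**
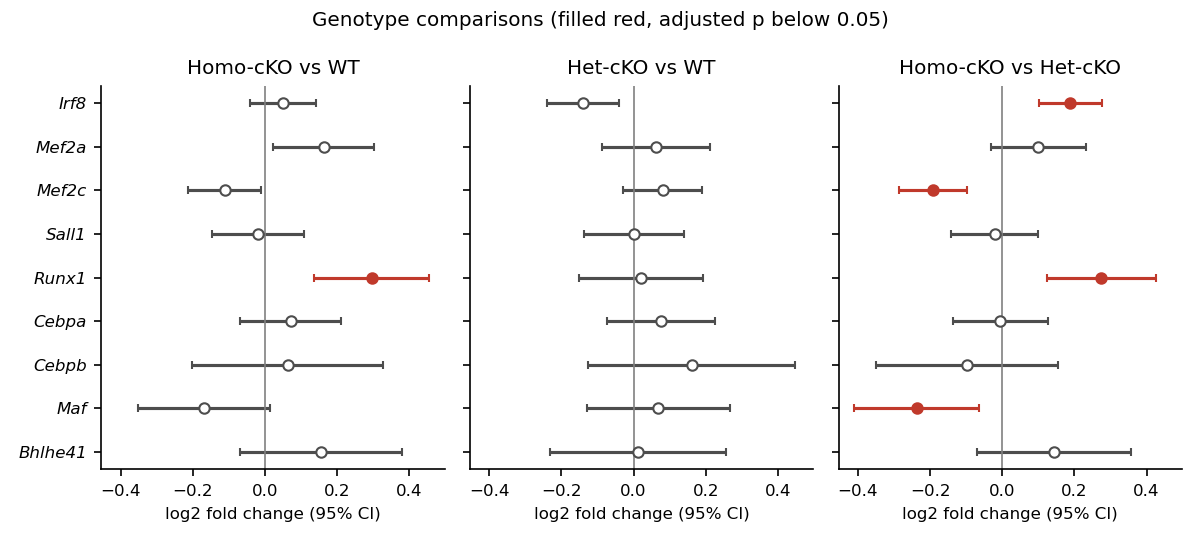
Log2 fold change of each factor with its 95% interval in the 3 genotype comparisons, red and filled where the adjusted p is below 0.05. Runx1 is called against WT at 0.30, and Irf8, Mef2c, Runx1 and Maf are called between Homo-cKO and Het-cKO mice.

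Both sexes were present in every genotype (2 to 5 females and 3 to 5 males). Between females and males, 0 of 9 factors were called by edgeR, DESeq2 or limma-voom (0.0852% of all genes in edgeR, 0.0465% higher and 0.0387% lower in females, and 0.0697% with a fold change above 1.5). Only Runx1 had an unadjusted p below 0.05, as 5.83% of all genes did, at a log2 fold change of 0.13 toward females (interval 0.00 to 0.26, adjusted p = 0.85 in edgeR). The test of the difference between the homozygous effect in females and in males called 0 of 9 factors by edgeR, DESeq2 or limma-voom and 0.0% of all genes in edgeR. Cebpb was the only factor with an unadjusted p below 0.05 there, as 4.99% of all genes had, at -0.59 on the log2 scale (interval -1.09 to -0.08, p = 0.024, adjusted p = 0.91 in edgeR). Its log2 fold change against WT was -0.29 in females and 0.30 in males, with 2 WT females in the comparison.

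Across the 23 mice, after removal of genotype and sex, 2 of 36 pairs of factors were correlated at an adjusted p below 0.05. Runx1 and Cebpb rose and fell together, with Pearson r = 0.61 (permutation p = 0.0016, adjusted p = 0.032) and Spearman rho = 0.64 (permutation p = 0.00097). Without the 2 mice farthest from the median of Runx1, r was 0.50. By genotype, r was 0.88 in 10 Homo-cKO mice, 0.45 in 6 WT mice and -0.20 in 7 Het-cKO mice. Without the 4 high-Fos libraries it was 0.49 with an adjusted permutation p of 0.16. Cebpa and Bhlhe41 went in opposite directions, with r = -0.62 (permutation p = 0.0018, adjusted p = 0.032) and rho = -0.45 (permutation p = 0.032). Here r was -0.41 without the 2 farthest mice, and -0.71 without the high-Fos libraries (adjusted permutation p = 0.021). Irf8 and Sall1 followed at r = 0.50 (permutation p = 0.015, adjusted p = 0.18). The count of such pairs was not stable, being 0 to 3 when a single mouse was left out, with 0 without Het-cKO F1, Homo-cKO F1, F4, F5, M2, M3 or M4, or WT M3 or M4, 1 without Homo-cKO M1, and 3 without WT M1.

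**Figure D4:**
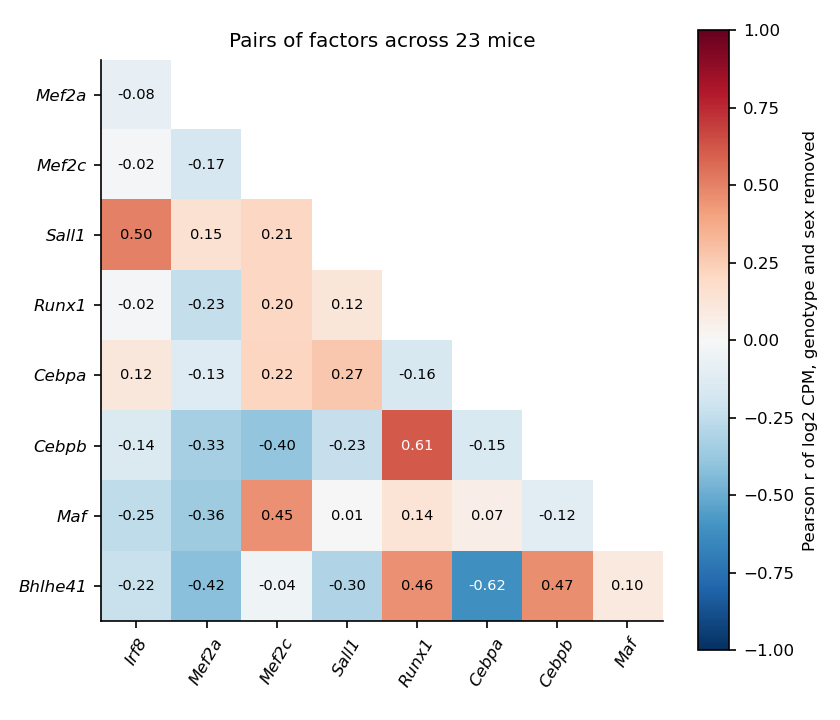
Pearson r of log2 CPM for the 36 pairs of factors over 23 mice after genotype and sex effects were removed, from -1 (blue) to 1 (red). The strongest cells are Runx1 with Cebpb at 0.61 and Cebpa with Bhlhe41 at -0.62.

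The genes whose pattern over the 23 mice was most like that of each factor, by Pearson r after removal of genotype and sex among the 12908 genes tested, were the following. For Irf8 they were Rundc1 (r = 0.81) and Arhgdia (0.72), for Runx1 Klf4 (0.78) and Stip1 (0.78), for Cebpa Dnajb2 (0.75) and Pcgf5 (0.75), and for Cebpb Arid5a (0.79) and Ccl12 (0.73). Mef2a was most like Msmo1 (0.84), Mef2c most like Hpgds (0.78) and Gm38224 (0.76), and Sall1 most like Fscn1 (0.72) and Phf2 (0.69). Maf was most like Malat1 (0.89) and Gm37376 (0.87), which is annotated within Malat1 on the opposite strand and whose reads cannot be told apart from it. Bhlhe41 was most like Xndc1 (0.79) and Ccnf (0.73). These are the highest of many values and share libraries and depth. Klf4 was at 0.271 to 1.14 CPM in WT mice and reached 13.5 CPM in Homo-cKO mice, and Ccl12, a chemokine, reached 266 CPM in Homo-cKO mice against at most 34.3 CPM in WT mice.

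Of 38 partners and paralogs of the factors, 31 were tested and 4 were called between Homo-cKO and WT mice, all higher, a share close to the 12.7% of all genes called. Among them, the interferon regulatory factors Irf7 (log2 fold change 0.68, adjusted p = 0.048) and Irf9 (0.25, adjusted p = 0.026) and the ETS factor Elf1 (0.24, adjusted p = 0.024) rose in edgeR. Irf7 was at only 2.51 to 5.18 CPM in WT mice, and its call was lost in 18 of 23 fits that left out 1 mouse. The call of Irf9 was lost without WT F1 or WT M3 (adjusted p up to 0.11 in edgeR) and that of Elf1 without WT F1 or WT F2 (up to 0.094). None of Irf7, Irf9 and Elf1 was called without the 4 high-Fos libraries or with only the Homo-cKO mice of the high number range. Spi1, which encodes PU.1, was at 420.2 to 472 CPM in WT and 407 to 507 CPM in Homo-cKO mice (log2 fold change 0.02, adjusted p = 0.85 in edgeR). The median log2 fold change was 0.08 over the 31 genes and 0.01 over all genes. Between Het-cKO and WT mice 0 of 31 were called in edgeR, with 3 at an unadjusted p below 0.05. Between Homo-cKO and Het-cKO mice 7 were called, a share close to the 22.7% of all genes, of which 5 were higher, among them Cbfb, the partner of RUNX proteins (0.28, adjusted p = 0.0062 in edgeR), and 2 were lower, Sall3 and Cebpd. Spi1, Cbfb, Sall3 and Cebpd were named after their values were seen.

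Of 32 genes taken as targets of the factors from general knowledge, 27 were tested, and 12 were called between Homo-cKO and WT mice, 6 higher and 6 lower, where 12.7% of all genes (5.66% higher and 7.09% lower) and 27.6% of the genes at or above the level of Runx1 were called. This list, like the other gene lists here, was chosen with earlier results of these data known. Its share of called genes is therefore no independent evidence about the factors. Of 6 genes maintained by SALL1, 3 were called lower, while Sall1 was at -0.02. The 3 were P2ry12, named after its values were seen, Tmem119 (-0.43, adjusted p = 0.00029 in edgeR) and the purinergic receptor gene P2ry13 (-0.51, adjusted p = 0.00095). Of 4 tested targets of IRF8 and PU.1, 2 fell, the fractalkine receptor Cx3cr1 (-0.51, adjusted p = 0.00018 in edgeR) and the CSF1 receptor Csf1r (-0.50, adjusted p = 0.0031), while Irf8 was at 0.05. Cx3cr1 was at 5683 to 7160 CPM in Homo-cKO mice and at 7976 to 11873 CPM in WT mice, with no overlap, as for 1.81% of all genes. Cx3cr1, Csf1r, Tmem119 and P2ry12 are also in the list of 9 microglial markers, whose summed level was 57783 to 67840 CPM in Homo-cKO mice against 66132 to 93827 CPM in WT mice. Of these 9 markers 5 were called lower, where 7.09% of all genes were, and 8 had a log2 fold change below 0.

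Among C/EBP targets, 3 of 6 tested were called higher. Lysozyme 2 (Lyz2) rose by 1.29 on the log2 scale (adjusted p = 3.5e-05 in edgeR), at 189.9 to 479 CPM in Homo-cKO against 118 to 169 CPM in WT mice, while Cebpa was at 0.07 and Cebpb at 0.06. The others were the cytokine genes Il1b and Il6, named after their values were seen. Of the 4 MEF2 targets 3 were called higher, Jun (3.23, adjusted p = 0.0040 in edgeR), Klf2 (2.45, adjusted p = 0.035) and Klf4 (2.39, adjusted p = 0.018), which are known as rapidly induced genes. Klf2 was at 1.48 to 141 CPM in Homo-cKO mice, and its call was lost in 9 of 23 fits that left out 1 mouse. Without the 4 high-Fos libraries its log2 fold change was -0.49, that of Klf4 was 0.79 (adjusted p = 0.39 in edgeR) and that of Jun 0.59 (adjusted p = 0.040). With only the Homo-cKO mice of the high number range, none of the 3 was called. All 6 tested genes of the immediate-early list were called higher in Homo-cKO than in WT mice, where 5.66% of all genes were. The summed level of this list (7 genes) was 283 to 8630 CPM in Homo-cKO mice (median 367) against 208 to 304 CPM in WT mice. Of 3 tested targets of MAF proteins 1 was called lower (C1qa, named after its values were seen). Of 4 clock genes repressed by BHLHE41 0 were called in edgeR, with 0 at an unadjusted p below 0.05 in this comparison. Summed monocyte and neutrophil markers were at 12.6 to 100.7 CPM in Homo-cKO mice against 4.71 to 40.3 CPM in WT mice. Of the 6 tested markers 1 was called higher, where 5.66% of all genes were, and 5 had a log2 fold change above 0 (median 1.69). Their part in the values of Lyz2, of the other targets and of the 9 factors was not tested. Between Het-cKO and WT mice 0 of 27 targets were called in edgeR, with 1 at an unadjusted p below 0.05.

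Of 21 genes of signals that act on these factors, 20 were tested, and 6 were called between Homo-cKO and WT mice, 2 higher and 4 lower, beside 12.7% of all genes and 27.6% of those at or above the level of Runx1. The interferon-gamma receptor chain Ifngr1 fell by 0.50 on the log2 scale (adjusted p = 9.0e-05 in edgeR), and the IL-6 receptor genes Il6ra (-0.50, adjusted p = 9.0e-05) and Il6st (-0.42, adjusted p = 0.035) fell with it. Il6ra was lower in all 10 Homo-cKO mice than in any WT or Het-cKO mouse. Of all genes, 1.81% did not overlap between Homo-cKO and WT mice and 2.32% between Homo-cKO and Het-cKO mice. Tgfb1 fell (-0.22, adjusted p = 0.029 in edgeR), whereas Smad3, which carries the TGF-beta signal, rose (0.25, adjusted p = 0.011). Creb1, which encodes a factor that acts at the Cebpb promoter, rose by 0.32 (adjusted p = 0.0050 in edgeR). The call of Il6st was lost without WT M1, M3 or M4 or Homo-cKO M2 or M4 (adjusted p up to 0.14 in edgeR), and that of Tgfb1 without WT M1, M3 or M4 (up to 0.10). Without the 4 high-Fos libraries only Ifngr1, Il6ra and Tgfb1 of the 6 were called, and with only the Homo-cKO mice of the high number range only Ifngr1, Il6ra and Smad3. The median log2 fold change of the 20 genes was -0.01. Between Het-cKO and WT mice 0 of 20 were called in edgeR, with 0 at an unadjusted p below 0.05.

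**Figure D5:**
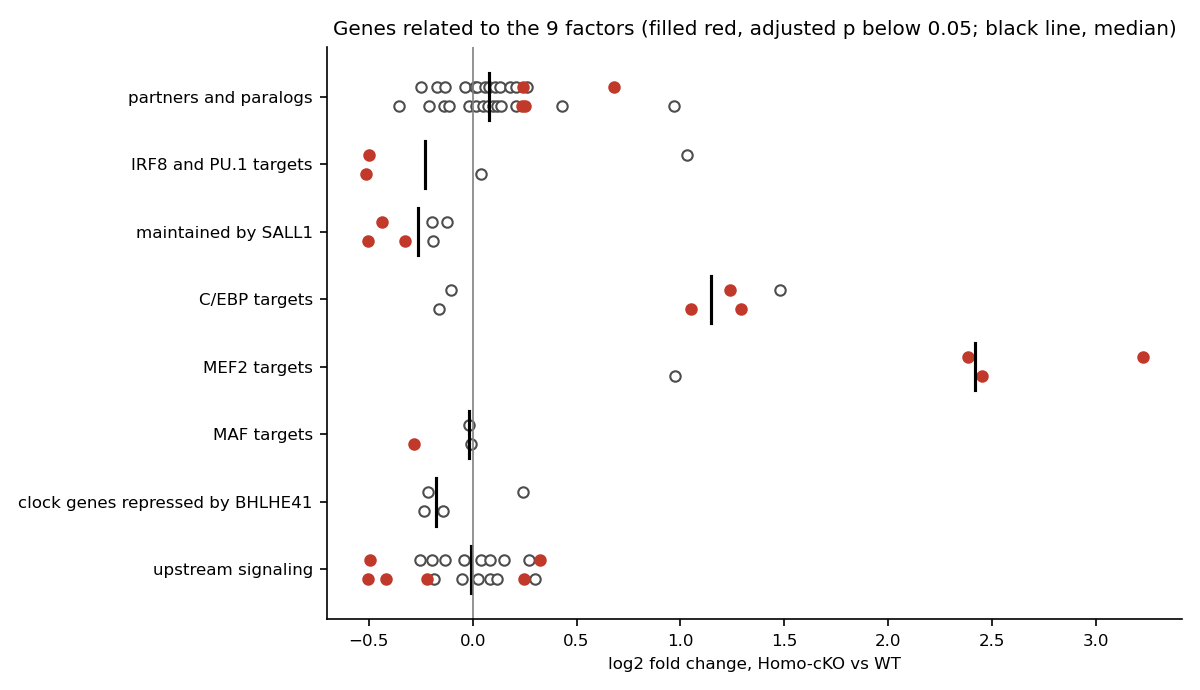
Log2 fold change between Homo-cKO and WT mice of the tested partners and paralogs, targets and upstream signaling genes of the 9 factors, 1 point per gene, red and filled where the adjusted p is below 0.05, with a black line at each list's median. Targets range from -0.51 to 3.23, with all 4 MEF2 targets to the right and all 6 genes maintained by SALL1 to the left of 0, called or not.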

How the data were processed

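RNA-seq of FACS-sorted microglia was analysed for 23 of 25 labelled mice. Of the 2 not analysed here, 1 was a WT female and 1 a Het-cKO male. Reads were mapped by the authors to mm10 with OmicSoft's aligner and an Ensembl gene model. The deposited values are expected counts per gene from RSEM, 1 column per mouse, scaled neither for depth nor for gene length. A strand setting is not given in the sources used here. Of the identifiers, 42929 were matched to symbols of GRCm38 and 482 were not.

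Expected counts were rounded to whole numbers, filtered with filterByExpr by genotype, normalized by TMM and tested with edgeR 4.0.16 (quasi-likelihood test, R 4.3.3) in a model of genotype (3 levels) plus sex over all mice, and p-values were adjusted by Benjamini-Hochberg over 12908 genes. A gene was called at an adjusted p below 0.05. Intervals cover 95%. The sex difference of the homozygous effect was tested in a fit with 1 term per genotype and sex. For CPM, each count was divided by its library size times the TMM factor. Correlations used log2 CPM (prior count 2) and 100000 permutations, two-sided. The scripts were tested on simulated data.

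The 9 factors and the gene lists were chosen with earlier results of these data known. Named genes were the 9 factors, up to 4 called genes with the largest rise and 4 with the largest fall of each list, the 2 genes most like each factor, and Fos. Some genes that this rule names are not reported here. Alternatives were DESeq2 1.42.0, limma-voom (limma 3.58.1), other normalization and filters, a model without sex, models of only the compared genotypes, subsets of Homo-cKO mice and each mouse left out. Animals are separate mice. Total counts ranged from 10812969 to 16734846. Libraries of a group differed by more than sampling noise (lowest mean chi-square per gene 7.60). Promoters were taken from RefSeq (GRCm38.p6), coordinates and exon overlaps from GENCODE M21. Figures were drawn with matplotlib 3.10.9.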

Additional observations from a re-analysis of the deposited data

Results flagged for a closer look

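The Mef2a level of Het-cKO M3, at 628 CPM, stood apart from the other 6 Het-cKO mice, of which the next highest had 523 CPM. This was the 1 group of 27 (9 factors in 3 genotypes) with a value so far from the others, where chance flags about 1 in 20 groups. Without this mouse the log2 fold change of Mef2a between Het-cKO and WT mice was -0.0014, against 0.06 with it, and it was not called either way.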

How the results depend on the processing

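No paired analysis was possible because each mouse has its own animal number in the labels, so that no replicate number is shared between genotypes. With only the Homo-cKO mice of the high number range, the factors called were 0 against WT and 2 against Het-cKO mice, and partners, targets and upstream genes called against WT were 0, 7 and 3. With the 4 high-Fos libraries left out these counts were 0, 2, 1, 10 and 3, and 1 pair of factors was correlated. Partners called were 1 with no filter on low counts and 2 with only the 2 groups compared. Leaving out each mouse gave 1 to 1 factor against WT, 3 to 4 against Het-cKO mice, 0 to 0 in the Het-cKO against WT, sex and sex-difference comparisons, 2 to 4 partners (2 without WT F1 or WT M3), 10 to 13 targets, 4 to 7 upstream genes and 0 to 3 pairs. All genes called against WT went from 1645 to 806 with the high number range and to 1062 without the high-Fos libraries, and against Het-cKO mice from 2936 to 1433 and 1898. The causes were not tested.

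Values close to 0 changed sign. With the high number range, Sall1 against WT was 0.0071, Cebpa -0.0035 and Cebpb -0.0034, and Cebpb was -0.068 without the high-Fos libraries. Klf2 was -0.55 and -0.49 in these fits. Between Het-cKO and WT mice, Sall1 was -0.00065 with DESeq2, -0.00064 with its size factors and -0.0059 with no filter, and Bhlhe41 was -0.0090 in the fit of 2 groups. Between Homo-cKO and Het-cKO mice, Sall1 was 0.0048 with the high number range, and Cebpa was 0.0020 with no filter and 0.035 with the middle number range. Leave-one-out ranges that crossed 0 were -0.054 to 0.0045 (Sall1) and -0.016 to 0.14 (Cebpb) against WT. For Het-cKO against WT they were -0.0014 to 0.099 (Mef2a), -0.035 to 0.025 (Sall1), -0.0017 to 0.043 (Runx1), -0.00073 to 0.12 (Maf) and -0.025 to 0.043 (Bhlhe41). For Homo-cKO against Het-cKO they were -0.043 to 0.0100 (Sall1) and -0.027 to 0.028 (Cebpa). In the genotype comparisons, no other planned setting changed the sign of a factor's log2 fold change. At the lowest count of 917 (Runx1), counting error may be a large part of the small spread between Het-cKO mice.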
